A study of Homo sapiens with 6 samples.

Results

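Nuclear receptors are transcription factors that carry a zinc-finger DNA-binding domain and, in most members, a pocket that binds a small lipophilic ligand such as a steroid, a retinoid, a thyroid hormone, a vitamin, a fatty acid or an oxysterol. Many of them work on DNA as heterodimers with a retinoid X receptor, steroid receptors work as homodimers after release from heat shock protein complexes, and orphan members act without a known ligand. They recruit coactivators or corepressors that open or close chromatin at their target genes, and in lung epithelium they take part in differentiation, lipid handling and responses to glucocorticoid and retinoid. Here 43 nuclear receptor genes were taken by symbol from a table of 28395 genes. Membership did not use their values, but the family was chosen with earlier results of these data known. Of these 43 genes, 30 averaged a signal of 10 or more over the libraries and were tested (50.1% of all genes were), and the other 13 are given by name below.

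The data came from HCC827 cells, an established human lung adenocarcinoma line whose EGFR gene carries an activating in-frame deletion in the kinase domain, a deletion that all libraries share. Cells were kept for 24 h with the vehicle DMSO or with 1 μM erlotinib, a small molecule that blocks the EGFR kinase, and gene expression was read by RNA-seq in 3 libraries of each group. The study asked which genes change when EGFR is inhibited. The DMSO columns of the table are numbered 1 to 3 and the erlotinib columns 4 to 6, and these numbers name the libraries below. Library totals ran from 20760204 to 24641819 reads. By a chi-squared statistic per degree of freedom, DMSO library 2 differed more from DMSO libraries 1 and 3 (22.9 and 14.4) than these from each other (7.61). On the log2 scale each pair of DMSO libraries correlated at 0.990. The study's methods say in general that experiments were repeated independently, but not whether the libraries of a group came from separate cultures, so p-values measure the spread between these libraries, which may be technical, and all cells are of 1 line. Values are signal, which is reads divided by 1 size factor per library, so that 3 reads stand for a signal between 2.77 and 3.40.

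Over the family, more tested receptors rose than fell with erlotinib. In the limma fit across all 14215 tested genes with Benjamini-Hochberg adjustment, 16 of 30 receptors rose (53.3%) and 6 fell, whereas 35.3% of all tested genes rose and 35.4% fell. The median log2 fold change, erlotinib minus DMSO, was 0.42 over the tested receptors and 0.02 over all tested genes. A rise of at least 1 on the log2 scale was found for 6 receptors (17.0% of all tested genes) and a fall of at least 1 for 2 (10.8% of all tested genes). The groups did not overlap for 17 receptors that were higher and 6 that were lower, against 36.7% and 36.9% of all tested genes. When each library was scaled to its total count, 18 receptors rose and 6 fell, and 43.3% of all tested genes rose and 27.8% fell, with the median of all tested genes at 0.20 and that of the receptors at 0.60. Under that scaling PPARG was at -0.92 and no longer counted as a fall of at least 1. With 10 in place of 1 added to the signal, RORA (0.80) and ESR1 (0.97) no longer counted as rises of at least 1. In bulk RNA, fewer cells expressing a gene and less RNA of that gene in each cell cannot be told apart.

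**Figure D1:**
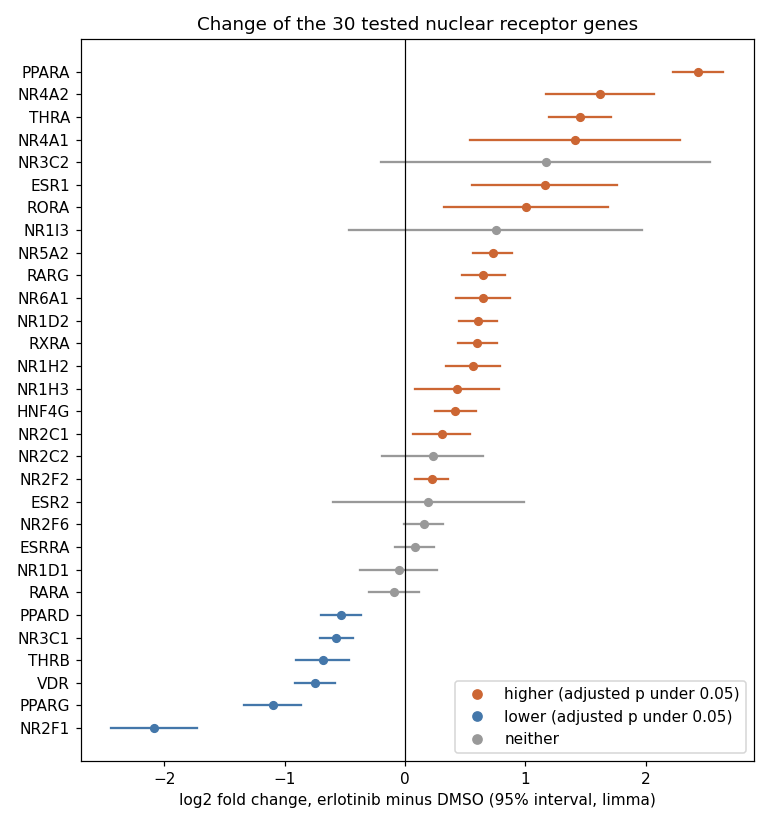
Log2 fold change of each of the 30 tested nuclear receptor genes (x axis, erlotinib minus DMSO, on the log2 of signal plus 1), with the 95% interval from limma as a line and the colour giving the call at an adjusted p under 0.05. PPARA lies farthest to the right at 2.43 and NR2F1 farthest to the left at -2.09.

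The promoters of the pair of receptors with the smallest adjusted p among those that rose, PPARA and THRA, and of the pair that fell by at least 1, NR2F1 and PPARG, are shown to place these genes, and they were chosen after their values were seen. Each run holds the 250 bases before the transcript start in RefSeq on GRCh38.p14, all on the plus strand, 5′ to 3′. Capitals mark the CCAAT box, the ETS factor core CCGGAA and the hexamer AGGTCA that many nuclear receptors bind, each read on either strand. The PPARA run is chr22:46150276-46150525, that of THRA chr17:40062715-40062964, that of NR2F1 chr5:93582972-93583221 and that of PPARG chr3:12288820-12289069.
PPARA: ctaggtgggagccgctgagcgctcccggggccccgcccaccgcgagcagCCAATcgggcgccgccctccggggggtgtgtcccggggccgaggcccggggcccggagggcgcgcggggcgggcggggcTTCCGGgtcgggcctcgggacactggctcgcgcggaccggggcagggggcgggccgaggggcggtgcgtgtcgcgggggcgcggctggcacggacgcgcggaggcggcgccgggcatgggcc
THRA: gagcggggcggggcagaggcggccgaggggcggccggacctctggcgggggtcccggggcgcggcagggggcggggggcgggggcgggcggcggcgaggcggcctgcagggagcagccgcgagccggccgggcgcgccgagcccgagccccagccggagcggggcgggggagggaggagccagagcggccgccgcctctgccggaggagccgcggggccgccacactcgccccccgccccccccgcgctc
NR2F1: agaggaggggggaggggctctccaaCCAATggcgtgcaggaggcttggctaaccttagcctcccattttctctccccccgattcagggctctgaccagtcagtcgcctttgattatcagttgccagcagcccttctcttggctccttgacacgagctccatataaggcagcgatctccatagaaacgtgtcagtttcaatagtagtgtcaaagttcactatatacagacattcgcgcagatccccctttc
PPARG: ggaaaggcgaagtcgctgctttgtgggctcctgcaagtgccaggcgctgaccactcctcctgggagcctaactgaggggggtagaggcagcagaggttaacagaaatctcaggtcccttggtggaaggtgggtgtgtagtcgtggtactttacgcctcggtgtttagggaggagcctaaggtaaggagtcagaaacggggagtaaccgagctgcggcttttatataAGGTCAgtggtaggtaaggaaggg
The PPARA and THRA runs held 84.4% and 87.2% G or C, and the NR2F1 and PPARG runs 52.4% and 55.6%. Over windows of 300 bases (250 before and 50 after the start) the median G or C content was 63.8% for 14 receptors that rose, 70.3% for 5 that fell and 63% for 7 others, beside 65% over all tested genes.

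A promoter was found in the RefSeq table for 38 of the 43 receptors, 26 of them tested. On either strand of the 300-base windows, AGGTCA was present in 4 of these 26 (NR5A2, PPARG, RARA and ESR2) and in 13.8% of all 35116 promoters. CCGGAA was present in 5 of 26 (NR1H2, NR2C2, NR2F2, NR6A1 and PPARA) and in 17.2% of all promoters, and CCAAT in 8 of 26 and in 34.6%. The AP-1 letters TGACTCA were in 3 of 26 and 4.95% of all promoters, the E-box CACGTG in 3 and 7.26%, and the CRE letters TGACGTCA in 1 and 1.85%. The TEAD letters GGAATG and the FOXO letters TGTTTAC, present in 14% and 3.42% of all promoters, were in none of the 26. In PPARG the AGGTCA began at position -24 from the start, and in PPARA the TTCCGG began at position -122. None of these motifs contains another, and none was present in the window of THRA.

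Levels were set between genes per kb of the MANE transcript, the representative transcript of each gene. In DMSO, 14 receptors had at least 254 signal per kb and the next, NR2F1, had 93.0. NR2F6 (EAR2), an orphan repressor related to the COUP-TFs, was the most abundant at 2032 ± 246 per kb (SD, n = 3), followed by NR2F2 (COUP-TFII) at 792 and by the estrogen-related receptor ESRRA, which drives mitochondrial genes, at 735. The glucocorticoid receptor NR3C1 (713), the shared heterodimer partner RXRA (683) and the vitamin D receptor VDR (449.9) came next. From NR2F2 to RXRA the DMSO libraries of each gene overlapped those of the next, and the order of these neighbours within libraries was not tested. With lengths of all merged exons in place of MANE lengths the first 4 kept their order, but the step below the 14 was gone, with NR1H2 at 115, NR2F1 at 81.6 and NR1D1 at 74.7 per kb, and PPARG went from 372 per kb to 55.1, below all of them.

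**Figure D2:**
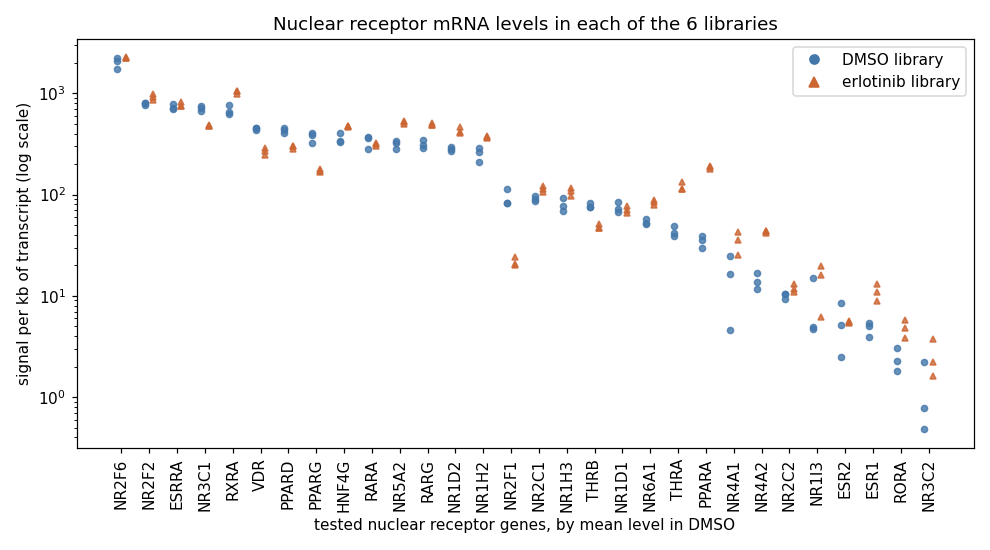
Level of each of the 30 tested receptors in each library (y axis, signal per kb of MANE transcript, log scale), ordered by the DMSO mean, with circles for DMSO and triangles for erlotinib. NR2F6 is the highest in every library, and the step in DMSO between 254 (NR1H2) and 93.0 (NR2F1) is there with MANE lengths but not with merged exon lengths.

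The receptors with the 3 highest levels per kb, NR2F6, NR2F2 and ESRRA, changed less than the next, NR3C1 and RXRA, which fell 1.49-fold and rose 1.51-fold and are described with their subfamilies. NR2F6 signal was 5341, 4197 and 4991 in the DMSO libraries and 5386, 5397 and 5300.0 in the erlotinib libraries. The groups overlapped, since DMSO library 1 was as high as the erlotinib libraries, and the log2 fold change of 0.15 ± 0.08 (SE) did not pass the test (adjusted p = 0.080, 95% interval -0.01 to 0.31). Without DMSO library 1 it was 0.23 with an adjusted p of 0.0128, without DMSO library 2 it was 0.054 with an adjusted p of 0.35, and with total-count scaling it was 0.33 with an adjusted p of 0.000541. ESRRA was 1804, 1582 and 1630.1 in DMSO and 1692, 1884 and 1721 with erlotinib, with overlapping groups and a log2 fold change of 0.08 ± 0.08 (adjusted p = 0.374), which total-count scaling moved to 0.26 (adjusted p = 0.005). It shares 284 exon bases with TRMT112 on the other strand, a gene at 410 and 284. NR2F2 was 4221, 4084 and 4249 in DMSO and 5197, 4884 and 4572 with erlotinib. Each erlotinib library was above each DMSO library, and the rise was 1.17-fold (log2 0.22 ± 0.07, adjusted p = 0.0058), which no longer passed without erlotinib library 4 (0.18, adjusted p = 0.0641).

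Among the fatty acid sensing PPARs, the member for fatty acid oxidation rose and the other two fell. PPARA, which lies at chr22:46150526-46243756 and drives fatty acid oxidation genes, had a signal of 364, 393 and 301 in DMSO and 1955, 1904 and 1827 with erlotinib. The groups were far apart, and the change was 5.38-fold (log2 2.43 ± 0.10, adjusted p = 1.3e-14), the largest rise of the family. PPARG, the regulator of fat cell differentiation and lipid storage at chr3:12287368-12434344, was 573, 716 and 692 in DMSO and 293, 319 and 306 with erlotinib. All erlotinib libraries were low, and the level was 2.16-fold lower (log2 -1.10 ± 0.11, adjusted p = 2.8e-08). PPARD, the widely expressed member, went from 1609 ± 84.2 to 1113 ± 41.0 (SD, n = 3 each), a log2 change of -0.53 ± 0.08 (adjusted p = 4.5e-06).

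Set against each other per kb of MANE transcript, PPARA made up 4.17% of summed PPAR signal in DMSO and 28.5% with erlotinib, while the sum of the 3 genes went from 838 ± 39.6 to 658 ± 17.5 per kb (SD, n = 3 each). The ratio of PPARA to PPARG per kb was 0.0946 ± 0.0177 in DMSO and 1.09 ± 0.0701 with the inhibitor, and that of PPARA to PPARD was 0.0814 ± 0.0148 and 0.629 ± 0.00977. The sum, the shares and the absolute ratio to PPARG depend on the length used, since PPARG's MANE transcript is much shorter than its merged exons. With merged exons, PPARG was at 55.1 per kb in DMSO and 25.5 with erlotinib, PPARD at 361 and 250, and PPARA at 26.7 and 143. The sum thus fell less than with MANE lengths. The ratio of PPARA to PPARG with merged exons was 0.489 and 5.62. For 11 such pairs within subfamilies, the two-sided exact permutation test cannot go below p = 0.10 with 3 libraries against 3, and both PPARA ratios were at that floor (0.157 after Benjamini-Hochberg adjustment over the 11).

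The thyroid hormone receptors also moved in opposite directions. THRA, at chr17:40062193-40093867, encodes the alpha form of the receptor for triiodothyronine and a splice form that does not bind hormone. Its signal was 254, 204 and 219 in DMSO and 586, 691 and 586 with erlotinib, with no overlap, a 2.75-fold rise (log2 1.46 ± 0.12, adjusted p = 1.3e-09). THRB, the beta form, went from 589 ± 31.6 to 366 ± 17.2 (log2 -0.69 ± 0.11, adjusted p = 7.5e-06), also without overlap. The ratio of THRA to THRB per kb was 0.558 ± 0.0381 in DMSO and 2.48 ± 0.313 with erlotinib (SD over 3 libraries each, exact permutation p = 0.10, the smallest this design allows), and merged exon lengths gave 0.573 and 2.55. THRA went from 35.8% to 71.1% of their summed signal per kb. The exons of THRA share 473 bases with NR1D1, which is read from the opposite strand, and whether the authors counted by strand is not given in the sources used here. NR1D1 itself was 197 ± 25.4 in DMSO and 189 ± 15.4 with erlotinib (log2 -0.05 ± 0.15, adjusted p = 0.765), and its sign was not stable, as total-count scaling gave 0.12.

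Retinoid and vitamin D receptors followed. RARG, the retinoic acid receptor prominent in epithelia, rose from 921 ± 83.9 to 1441 ± 37.9 (log2 0.65 ± 0.09, adjusted p = 8.9e-07), whereas RARA was 1108 ± 164 and 1030.0 ± 37.9 with overlapping groups (log2 -0.09 ± 0.10, adjusted p = 0.403). The RARA value rested on DMSO library 2, which was low at 920.3, and without that library it was -0.22 with an adjusted p of 0.00957, while total-count scaling turned it to 0.09. RXRA, with which RARs, PPARs, thyroid hormone receptors and VDR pair on DNA, rose 1.51-fold from 3780.5 ± 451 to 5713 ± 173 (log2 0.60 ± 0.08, adjusted p = 5.1e-07). VDR, the receptor for the hormonal form of vitamin D, was 1994, 2119 and 2116 in DMSO and 1240.3, 1135 and 1337 with erlotinib. The 2 groups did not overlap, and the log2 change was -0.75 ± 0.08 (adjusted p = 4.0e-08). Together the 3 RAR genes had 654 ± 72.9 signal per kb in DMSO and 809 ± 22.6 with erlotinib, with RARB contributing 0 reads in DMSO and 5 with erlotinib, all of them in library 6.

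**Figure D3:**
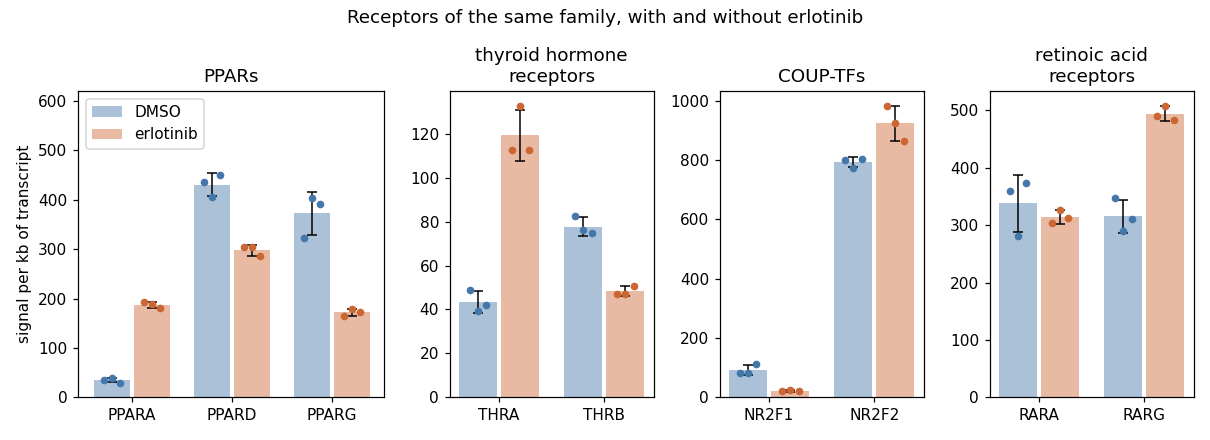
Signal per kb of MANE transcript (y axes) for members of 4 subfamilies, with bars for the mean of 3 libraries, error bars for the SD and points for the libraries, DMSO in blue and erlotinib in orange. PPARA and THRA are higher with erlotinib while PPARD, PPARG and THRB are lower, and NR2F1 is lower while NR2F2 is slightly higher.

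Of the COUP transcription factors, orphan receptors that mostly repress, only NR2F1 of the 2 measured here fell. NR2F1 (COUP-TFI), at chr5:93583222-93594611, had a signal of 321, 316 and 436 in DMSO and 78.4, 93.1 and 76.8 with erlotinib. The groups were far apart, and the level was 4.32-fold lower (log2 -2.09 ± 0.17, adjusted p = 6.9e-10), the largest change downward in the family, while NR2F2 rose slightly, as given above. The ratio of NR2F2 to NR2F1 per kb was 8.68 ± 1.38 in DMSO and 43.2 ± 5.01 with erlotinib (SD over 3 libraries each, exact permutation p = 0.10, the smallest possible). Its antisense neighbour NR2F1-AS1, which shares 158 exon bases with it, also fell, from 117 ± 20.6 to 35.1 ± 3.07 (log2 -1.70 ± 0.24, adjusted p = 2.8e-06), and without strand the reads of the shared bases cannot be told apart. NR2C1 (TR2) rose from 374 ± 21.9 to 462 ± 33.1 (log2 0.30 ± 0.11, adjusted p = 0.0207), a call that was lost without erlotinib library 4 (adjusted p = 0.105) or library 6 (0.0584). NR2C2 (TR4) was 85.0 ± 5.05 and 99.9 ± 9.69 (log2 0.23 ± 0.20, adjusted p = 0.321) and shares 7157 exon bases with MRPS25 on the other strand, a gene at 1587 and 1726.

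NR4A receptors are orphan factors without an open ligand pocket and are known as immediate-early genes, induced within a short time of a stimulus. NR4A2 (NURR1) was 57.9, 40.9 and 47.1 in DMSO and 152, 146 and 153 with erlotinib, a 3.09-fold rise without overlap (log2 1.62 ± 0.21, adjusted p = 9.8e-07). NR4A1 (NUR77) was 11.3, 40.9 and 61.0 in DMSO and 105, 88.1 and 62.7 with erlotinib. Its groups only just did not overlap, and DMSO library 1 stood low, so that the log2 fold change of 1.41 ± 0.42 (adjusted p = 0.0051) was 0.73 without that library (adjusted p = 0.0263). NR4A3 (NOR1) was near the floor, with 19 reads over the DMSO libraries and 13 over the erlotinib libraries. Immediate-early and EGFR-responsive genes outside the family, picked after their values were seen, did not all move the same way as NR4A2. The phosphatase gene DUSP1 rose (log2 1.38 ± 0.07, adjusted p = 7.9e-13), IER2 fell by 0.33, EGR1 went from 985 ± 7.94 to 236 ± 17.8 (log2 -2.06 ± 0.11, adjusted p = 3.7e-13), FOS from 72.3 ± 20.1 to 29.6 ± 4.70 (log2 -1.23 ± 0.30, adjusted p = 0.0010) and the ERK phosphatase gene DUSP6 from 1391 ± 25.3 to 68.2 ± 5.35 (log2 -4.33 ± 0.12, adjusted p = 5.1e-17).

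Of the steroid receptors, the glucocorticoid receptor fell and the estrogen receptor alpha gene rose from a low level. NR3C1 signal was 4855, 5097 and 4538 in DMSO and 3226, 3225 and 3286 with erlotinib. All 3 erlotinib libraries were lower than any DMSO library, and the change was -0.57 ± 0.07 on the log2 scale (adjusted p = 1.5e-07), or 1.49-fold lower. ESR1 was 24.96, 31.6 and 34.2 in DMSO and 68.3, 83.2 and 56.2 with erlotinib, a 2.29-fold rise without overlap (log2 1.16 ± 0.29, adjusted p = 0.0013), and even then its 10.9 signal per kb was far under the 479 of NR3C1. ESR2, the beta form, was 35.2, 57.6 and 17.1 in DMSO and 38.8, 36.6 and 37.4 with erlotinib. The DMSO libraries of ESR2 spread widely around the erlotinib ones, and its change of 0.19 ± 0.38 (adjusted p = 0.658) turned to -0.25 without DMSO library 3. The mineralocorticoid receptor NR3C2 was at 6.72 ± 5.37 and 14.7 ± 6.40 with overlap (log2 1.17 ± 0.66, adjusted p = 0.119), and passed only without DMSO library 3 (1.70, adjusted p = 0.0372). PGR, the progesterone receptor, had 0 reads in every library.

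The clock receptors bind shared response elements, where the REV-ERBs NR1D1 and NR1D2 repress and the RORs activate. NR1D2 rose from 1479.9 ± 70.9 to 2251 ± 145 (log2 0.60 ± 0.08, adjusted p = 4.9e-07), which took its ratio to NR1D1 per kb from 3.84 ± 0.644 to 6.02 ± 0.569 (SD over 3 libraries each, exact permutation p = 0.10, the smallest possible). RORA was scarce, at 32.9, 19.5 and 24.6 in DMSO and 52.6, 41.6 and 61.8 with erlotinib. Its groups did not overlap, but the 2.02-fold rise (log2 1.00 ± 0.33, adjusted p = 0.0099) did not pass without erlotinib library 6 (0.87, adjusted p = 0.0604). RORB had 0 reads in all 6 libraries.

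Sterol and xenobiotic receptors were led by NR1H2. NR1H2 (LXR beta), a sensor of oxysterols, rose from 614 ± 95.8 to 899.9 ± 23.6 (log2 0.56 ± 0.11, adjusted p = 8.7e-05). Its exons share 1182 bases with NAPSA on the other strand, and NAPSA, an alveolar aspartic protease gene, rose from 986 ± 74.9 to 3733 ± 156 (log2 1.92 ± 0.08, adjusted p = 8.4e-15). The part of NAPSA reads in the NR1H2 value was not tested. NR1H3 (LXR alpha) rose from 147 ± 23.3 to 198 ± 18.1 (log2 0.43 ± 0.17, adjusted p = 0.0258), and this call was lost on leaving out DMSO library 2 (0.0833) or 3 (0.0562), or erlotinib library 4 (0.069) or 5 (0.104), all adjusted p-values. It shares 189 exon bases with ACP2, which also rose (log2 0.52 ± 0.16, adjusted p = 0.0067). The xenobiotic sensor NR1I3 (CAR) was 11.2 ± 7.90 and 19.0 ± 9.48 with overlap (log2 0.75 ± 0.58, adjusted p = 0.256). Its change lay between 0.44 without erlotinib library 4 and 1.24 without DMSO library 3, and it shares 663 exon bases with TOMM40L on the other strand, a gene at 547 and 406.

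NR5A2, NR6A1 and HNF4G, of the NR5, NR6 and HNF4 subfamilies, also rose. NR5A2 (LRH-1), which binds DNA as a monomer, rose 1.65-fold from 1570.4 ± 143 to 2593 ± 85.9 (log2 0.73 ± 0.08, adjusted p = 4.9e-08). NR6A1 (GCNF), an orphan repressor known from germ cells and early embryos, rose from 380.1 ± 26.2 to 595 ± 36.9 (log2 0.65 ± 0.11, adjusted p = 1.9e-05). HNF4G rose from 1502 ± 162 to 1999 ± 20.3 (log2 0.42 ± 0.08, adjusted p = 1.1e-04), while its better known relative HNF4A, the hepatocyte nuclear factor, had 0 reads in DMSO and 2 with erlotinib.

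The 13 receptors that were not tested had few or no reads. RXRG, RORB, NR0B1 and PGR had 0 reads in all 6 libraries, which by counting error alone allows a signal of up to 3.40 in DMSO library 1 and less in the others. NR0B2 (SHP), NR1H4 (FXR), NR1I2 (PXR), RARB, ESRRB, ESRRG and HNF4A never exceeded 6 reads in 1 library, and NR4A3 never exceeded 11. NR2E3, the photoreceptor receptor, had 14 reads over the DMSO libraries and 34 over the erlotinib libraries. These genes were too low for the test at this depth.

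Steroid receptors are held ready for ligand by HSP90 and its cochaperones, and of the 4 partner lists this one had the largest share of genes moving one way. Of 15 chaperone genes, all tested, 14 fell and 1 rose, with a median log2 fold change of -1.18, beside 35.4% of all tested genes that fell and their median of 0.02. HSP90AA1, the inducible HSP90, fell 4.39-fold from 61879 ± 4454 to 14108 ± 12.2 (log2 -2.13 ± 0.07, adjusted p = 1.7e-16), and HSP90AB1, the constitutive form, went from 9652 ± 312 to 4840.3 ± 161 (1.99-fold lower, adjusted p = 1.0e-11). The immunophilin FKBP4, which favours receptor activity, fell 2.84-fold, the cochaperone p23 (PTGES3) 2.58-fold, and FKBP5, which lowers glucocorticoid binding and is itself a glucocorticoid target, 1.62-fold. BAG1, a cochaperone of HSP70, was the exception at 0.37 ± 0.08 (adjusted p = 0.00035). These genes also serve many client proteins other than nuclear receptors.

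Coregulators split evenly. Of 27 listed, 26 were tested, 9 rose and 8 fell (34.6% and 30.8%, near the shares of all tested genes), and their median log2 fold change was -0.01. NCOA7 rose most, from 545 ± 85.2 to 2659 ± 149 (log2 2.29 ± 0.10, adjusted p = 3.0e-14), and the steroid receptor coactivator NCOA1 rose by 0.74 ± 0.09. The PGC-1 family members PPARGC1B and PPRC1, coactivators of mitochondrial genes, fell by 1.54 and 1.37, and PPARGC1A was not tested, with at most 2 reads in 1 library. The Mediator subunit MED1, through which many receptors reach RNA polymerase II, fell by 0.37, and HDAC3, the deacetylase of the corepressor complex, by 0.49. NCOR1 was at 4069.6 ± 274 and 4043 ± 173 (log2 -0.01 ± 0.07, adjusted p = 0.92) with a sign that depended on the scaling, and NRIP1 (RIP140), at 10503 ± 663 and 11390.0 ± 175, did not pass (log2 0.12 ± 0.06, adjusted p = 0.103) except with total-count scaling (0.30, adjusted p = 0.000345) or without DMSO library 2 (0.17, adjusted p = 0.00268).

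Among genes that make, carry or break down ligands, 25 of 44 were tested, 10 rose (40.0%) and 4 fell (16.0%), with a median of 0.37, beside 35.3% and 35.4% of all tested genes. Among the retinoid enzymes, ALDH1A3, which oxidises retinal to retinoic acid, was 10516, 11901 and 10491 in DMSO and 42531, 41012 and 42845 with erlotinib. That was a 3.84-fold rise with no overlap (log2 1.94 ± 0.07, adjusted p = 6.5e-16). DHRS3, which returns retinal to retinol, rose by 1.94 ± 0.09, RDH10, which makes retinal, by 0.65 ± 0.07, and CYP26A1, which degrades retinoic acid and is a textbook RAR target, by 2.57 ± 0.21, from 46.4 ± 12.3 to 275 ± 22.9. The retinoic acid carrier CRABP2 fell by 1.00 and the retinal reductase RDH11 by 1.25. The retinoid genes that rose thus include both a maker and a breaker of retinoic acid.

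For the other ligands, the estrogen sulfotransferase SULT1E1 was almost silent in DMSO, at 4.54, 2.79 and 2.14, and 129, 128 and 116 with erlotinib, a log2 change of 4.95 ± 0.40 (adjusted p = 7.2e-10) that depends on the added 1 at such low values. CRYM, which binds thyroid hormone in the cytosol, was at 2.27, 5.57 and 0 in DMSO and 44.3, 30.7 and 26.2 with erlotinib (log2 3.61 ± 0.70, adjusted p = 1.1e-04, and 1.80 with 10 added in place of 1). AKR1C3, a steroid-reducing enzyme, rose by 2.53 ± 0.27 from 20.6 ± 2.52, and HSD11B2, which inactivates cortisol, fell from 134 ± 7.32 to 43.9 ± 9.78 (log2 -1.61 ± 0.23, adjusted p = 3.2e-06). SULT2B1, which sulfates sterols, was 31.8, 46.4 and 59.9 in DMSO and 28.6, 2.97 and 14.0 with erlotinib (log2 -1.91 ± 0.55, adjusted p = 0.0041). Its change was -1.11 without erlotinib library 5 (adjusted p = 0.0238), the lowest of the 3.

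**Figure D4:**
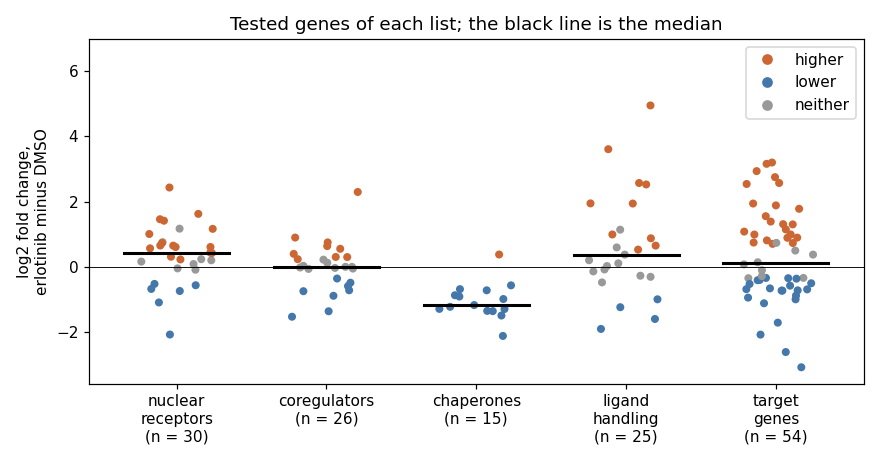
Log2 fold change (y axis, erlotinib minus DMSO) of every tested gene of the receptor list and of 4 partner lists, coloured by call, with the list median as a black line. The chaperones lie below 0 except for BAG1, with a median of -1.18, while the receptors have a median of 0.42 and the other lists medians of -0.01, 0.37 and 0.10.

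Textbook target genes moved in both directions for most receptors. Of 85 listed, 54 were tested, 23 rose (42.6%) and 22 fell (40.7%), with a median log2 fold change of 0.10. Both shares lie near those of all tested genes, 35.3% and 35.4%. Several are targets of more than 1 receptor and most answer to other factors too, so that a count over targets does not measure a receptor's activity.

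Targets listed under the glucocorticoid receptor rose in 6 of 10 tested cases and fell in 3, where 35.3% of all tested genes rose and 35.4% fell. CEBPD, a transcription factor, rose by 1.78 ± 0.08, the phosphatase gene DUSP1 by 1.38 ± 0.07, KLF9 by 1.30 ± 0.22, TSC22D3 (GILZ) by 1.14 ± 0.08, the kinase gene SGK1 by 0.89 ± 0.09 and the clock gene PER1 by 0.81 ± 0.13. ANGPTL4, a lipase inhibitor that is also listed under PPAR, went from 515 ± 52.9 to 82.7 ± 10.1 (log2 -2.63 ± 0.15, adjusted p = 3.0e-12), the EGFR feedback inhibitor ERRFI1 fell by 1.13 and FKBP5 by 0.69. NR3C1 itself was lower, as given above.

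PPAR targets were 3 higher and 3 lower of 7 tested (42.9% each, beside 35.3% and 35.4% of all tested genes). PDK4, the kinase that shuts down pyruvate dehydrogenase, was 78.3, 73.4 and 82.4 in DMSO and 760.4, 772 and 647 with erlotinib, a 9.31-fold rise without overlap (log2 3.20 ± 0.14, adjusted p = 2.9e-14). CPT1A, which brings fatty acids into mitochondria, was 53.3, 70.6 and 81.3 in DMSO and 383, 401 and 407 with erlotinib, 5.80-fold higher (log2 2.54 ± 0.17, adjusted p = 4.2e-11). Against these, ANGPTL4 fell as given, the mitochondrial enzyme HADHA fell by 0.41 and the lipid droplet gene PLIN2 by 0.35, the last of which did not pass with total-count scaling (-0.17, adjusted p = 0.0785), while ACADM was at -0.11 ± 0.09 (adjusted p = 0.28). CD36, CIDEC and FABP4 had at most 2 reads in 1 library.

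Retinoic acid receptor targets rose in 3 of 8 cases and fell in 2, beside 35.3% and 35.4% of all tested genes. RARRES3 rose 7.61-fold from 744 ± 105 to 5664 ± 191 (log2 2.94 ± 0.09, adjusted p = 1.1e-16), next to CYP26A1 and DHRS3, while CRABP2 fell by 1.00 and transglutaminase TGM2 by 0.42. The early embryonic target HOXA5 was at 0.13 ± 0.16 and did not pass (adjusted p = 0.45). Under VDR, CYP24A1, the enzyme that clears vitamin D, rose from 207 ± 12.5 to 412 ± 37.9 (log2 0.99 ± 0.13, adjusted p = 7.9e-07) and the phosphate transporter SLC34A2, also an alveolar cell gene, from 15.6 ± 9.87 to 132 ± 6.55 (log2 3.16 ± 0.35, adjusted p = 6.6e-08). CALB1, at 40.6 ± 7.17 and 20.7 ± 5.34, fell (log2 -0.95 ± 0.36, adjusted p = 0.0225), but did not pass without DMSO library 3 (0.076) or without erlotinib library 4 (0.0767) or 6 (0.058).

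LXR targets were 3 higher and 4 lower of 7, against 35.3% and 35.4% of all tested genes. SCD, the stearoyl-CoA desaturase that is also driven by SREBP, fell 8.53-fold from 42718 ± 546 to 5007 ± 77.0 (log2 -3.09 ± 0.06, adjusted p = 2.3e-19), LPCAT3 fell by 0.74, the cholesterol exporter ABCA1 by 0.67 and SREBF1 by 0.36, the last of which did not pass with total-count scaling (-0.18, adjusted p = 0.107). SMPDL3A rose by 1.55 ± 0.21, APOE by 0.73 ± 0.25 (not passing without erlotinib library 4, at 0.61 with an adjusted p of 0.0794) and MYLIP, which degrades the LDL receptor, by 0.70 ± 0.14. Thyroid hormone receptor targets rose for BCL3 (1.31 ± 0.09) and KLF9 and fell for malic enzyme ME1 (-0.70 ± 0.10), and HR, at 0.49 ± 0.71 and at -0.28 without DMSO library 2, did not pass (adjusted p = 0.54).

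Of 5 clock targets of the REV-ERBs and RORs, 4 fell and none rose, a count over few genes of a table in which 35.4% of tested genes fell: CLOCK by 0.74, CRY1 by 0.73, NPAS2 by 0.51 and NFIL3 by 0.37, whereas ARNTL (BMAL1), the best known of them, was 97.6, 103 and 112 in DMSO and 88.6, 90.1 and 76.8 with erlotinib. The groups of ARNTL did not overlap but its change did not pass (log2 -0.29 ± 0.20, adjusted p = 0.20), and NFIL3 did not pass with total-count scaling (-0.19, adjusted p = 0.076). Targets of the estrogen-related receptors fell in 4 of 6 cases, against the same 35.4%: cytochrome c (CYCS) by 2.09 from 11869.5 ± 1334, IDH3A of the citric acid cycle by 1.72, ATP synthase subunit ATP5B by 0.89 and mitofusin MFN2 by 0.53, with PDK4 as the 1 that rose, while ESRRA itself did not pass the test. Under the estrogen receptors cathepsin D (CTSD) rose by 1.08 ± 0.07, PDZK1 by 1.88 ± 0.64 from few reads and with overlapping groups, and XBP1 fell by 0.58. PDZK1 was 51.7 in erlotinib library 4 and did not pass without it (1.30, adjusted p = 0.149), while GREB1 and TFF1, the most used estrogen targets, had at most 8 reads in 1 library. Under PXR and CAR, the drug exporter ABCB1 rose by 0.99 ± 0.19 and CYP3A5 by 2.75 ± 0.87 with overlapping groups. CYP3A5 did not pass without erlotinib library 4 (2.52, adjusted p = 0.0501) and was too low for the test without library 5.

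**Figure D5:**
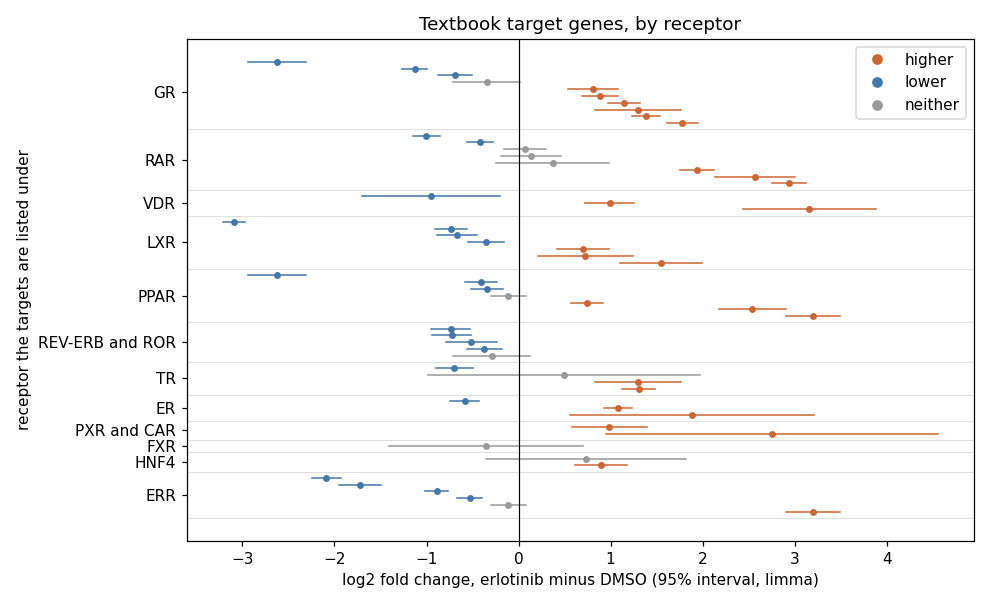
Log2 fold change (x axis, erlotinib minus DMSO) with its 95% limma interval for each tested target gene, grouped by the receptor it is listed under and coloured by call; a gene listed under several receptors appears under each. All 5 estimates for clock targets lie to the left of 0, with the interval of ARNTL reaching past it, while PPAR targets run from -2.63 (ANGPTL4) to 3.20 (PDK4).

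Most markers on the epithelial list were abundant in both groups, and of 9 tested 5 fell and 2 rose, where 35.4% of all tested genes fell and 35.3% rose. Their median log2 fold change was -0.39, and the summed signal of all 10 listed was 368644, 340958 and 359747 in DMSO and 241518, 246115 and 253952 with erlotinib. The keratin genes KRT7, KRT8, KRT18 and KRT19 fell by 0.63, 0.83, 1.25 and 0.39 and EGFR by 0.81, while NKX2-1 and NAPSA rose. CDH1 was at 0.14 (adjusted p = 0.053) and passed as higher in 6 of 15 alternatives, edgeR and DESeq2 among them. EPCAM was 9852 ± 235 and 9485 ± 281 (log2 -0.05 ± 0.06, adjusted p = 0.43), KRT7 had the highest signal of the 10 epithelial markers, and the lung lineage factor NKX2-1 rose from 3002 ± 209 to 8644 ± 408 (log2 1.53 ± 0.07, adjusted p = 5.2e-14). SFTPB, a surfactant gene on the same list, never exceeded 13 reads. Of 5 fibroblast markers, COL1A1 had the highest signal and rose (77.7 ± 15.3 to 216 ± 27.9), while COL1A2, COL3A1, DCN and PDGFRB had at most 5 reads in 1 library, and the summed signal was 71.5, 71.5 and 102.7 in DMSO and 251, 213 and 197 with erlotinib. Of 5 leukocyte markers, PTPRC had at most 6 reads, and CD68, the 1 tested, rose by 0.23. CD68 made up nearly all of their sum, which was 2782, 2790 and 3164 in DMSO and 3217, 3534 and 3465 with erlotinib. The 4 endothelial markers summed to 15.8 to 34.0 in DMSO and 45.9 to 58.1 with erlotinib, with VWF rising from 3.94 ± 3.31 to 27.4 ± 6.93, and the 4 hepatocyte markers summed to at most 27.1, with APOA1 at 0 and ALB and TTR at most at 4 reads. The part of these markers' changes in the receptor results was not tested.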

How the data were processed

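The study sequenced RNA of HCC827 cells as paired-end reads. The authors aligned them to GRCh38 with Bowtie2 2.3.4, summed reads with a unique position over genes with featureCounts 1.6.3 and used DESeq2 1.18.1 for their own comparison, per the paper and the submitters' processing notes. The signal values the authors deposited, 1 column per library, are whole reads divided by a size factor (0.882 to 1.08). This division is not stated, but 100% of values in each library came out as whole reads within 0.01, so the table is not raw counts. Strandedness of the counting is not given in the sources used here.

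The 14215 of 28395 genes that averaged a signal of 10 or more were tested with limma 3.58.1 (R 4.3.3) with a variance trend on log2(signal + 1), and p-values were adjusted over all of them by the Benjamini-Hochberg method at a threshold of 0.05. The added 1 pulls fold changes of low genes towards 0. The fitted change is a difference of mean log2 values, so where libraries of a group vary widely it can be larger or smaller than the folds given as such, which are ratios of mean signal. Alternatives were edgeR 4.0.16 and DESeq2 1.42.0 on the recovered reads, other scalings, filters, pseudocounts (0.1 and 10), a threshold of 0.01 and leaving out each library. On simulated data (14199 genes) of the erlotinib against DMSO comparison, 100 genes were changed by 1 on the log2 scale and 100 by 2. There limma recovered 84 of 99 tested genes changed by 1 and 93 of 96 changed by 2, and 4.84% of its calls were false. In the data a far larger share was called, as 35.3% of all tested genes rose and 35.4% fell. Recovery and false calls depend on that share, so these rates hold for the simulation and were not tested for the data. Levels between genes used MANE transcript lengths. No transcript of the 43 receptors had 90% of its length on any of 261 alternate contigs (minimap2 2.31-r1302), where uniquely mapped reads could be lost. Exons of 15 receptors overlap another gene.

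Values in every library were given for receptors past the threshold with a change of at least 1 and no overlap, and for the 3 highest per kb, with some others added. The receptors were taken by family membership and not by their values, but the family and the lists were chosen with earlier results of these data known. Some genes of these lists are counted but not reported by name here.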

Additional observations from a re-analysis of the deposited data

How the results depend on the processing

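The counts of calls over all receptors, over each whole partner list and over all tested genes stayed within 1.5 times under each of 15 alternatives. The counts of receptors changed by at least 1 did not. PPARG (-0.92) missed a fall of 1 when scaled to total count. With 10 added in place of 1, RORA (0.80) and ESR1 (0.97) missed a rise of 1. Counts within smaller groups rest on few genes, and those for the targets of VDR, PPAR, LXR, ER and PXR and CAR, for steroid, thyroid hormone and vitamin D handling and for the cell type markers moved by 1.5 times or more under at least 1 of them. Receptors that rose numbered 13 to 18 and receptors that fell 6 to 7. Of 22 receptors called, 18 kept their call under every alternative and 0 reversed. The calls lost were NR1H3 (0.33 to 0.42 without DMSO library 2 or 3 or erlotinib library 4 or 5), NR2C1 (0.25 and 0.30 without erlotinib library 4 or 6), NR2F2 (0.18 without erlotinib library 4) and RORA (0.87 without erlotinib library 6), and at a threshold of 0.01 NR1H3 and NR2C1. Calls gained were NR2F6 (0.33 scaled to total count, 0.23 without DMSO library 1), ESRRA (0.26 scaled to total count), NR3C2 (1.70 without DMSO library 3) and RARA (-0.22 without DMSO library 2). No called receptor or list gene changed sign. Of receptors not called, NR1D1 was 0.12 scaled to total count, 0.046 without DMSO library 3 and 0.0019 without erlotinib library 6, and lay between -0.13 and 0.046 as each library was left out. RARA was 0.085 scaled to total count, and ESR2 lay between -0.25 without DMSO library 3 and 0.59 without DMSO library 2. Signs also turned for 15 list genes that were not called, ACADM (0.068) and EPCAM (0.12) among them when scaled to total count and HR (-0.28) without DMSO library 2. NCOR1, also among them, was 0.0070 in edgeR, 0.0074 with TMM factors in limma, 0.17 scaled to total count (adjusted p = 0.0314), 0.0056 and 0.033 without DMSO library 1 or 2 and 0.024 without erlotinib library 5, and was lowest, at -0.063, without DMSO library 3. Total-count scaling also ended the calls of SREBF1 (-0.18), NFIL3 (-0.19), PLIN2 (-0.17) and CALB1 (-0.78), and moved PPARD to -0.35, NR2C1 to 0.48, NR2F2 to 0.40, NCOA2 to 0.41, NCOA3 to 0.48, NCOA4 to 0.47, MED1 to -0.19, HDAC3 to -0.31, KRT19 to -0.21, CD68 to 0.41, TGM2 to -0.24, HADHA to -0.23, NPAS2 to -0.33 and MFN2 to -0.35, these still called. With 10 added in place of 1, low genes moved by over 1.5 times: SULT2B1 to -1.26, CRYM to 1.80, PDZK1 to 1.13, CYP3A5 to 1.26 and VWF to 1.44, also still called. The call of NCOA2 was lost without DMSO library 1 (0.19, adjusted p = 0.0639) or erlotinib library 6 (0.20, adjusted p = 0.0701). At a threshold of 0.01 it was lost too (adjusted p = 0.0136). The causes were not tested. No paired analysis was possible because the erlotinib columns carry the numbers 4 to 6, which are not those of the sample titles. Groups of 3 libraries and few reads limit what can be seen, as for NR3C2, whose 95% interval ran from -0.20 to 2.54.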
